A study of Homo sapiens with 60 samples.

Results

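HepG2, a widely used human liver cancer cell line, was treated for 24 h with ethanol extracts of single herbs, and messenger RNA was sequenced. The comparison described here sets the dose response to Poria Cocos against the dose response to Glycyrrhizae Radix (licorice root). A dose response is the change from the Low dose, 20 µg/mL, to the High dose, 500 µg/mL. It rests on 12 of the 60 libraries of the series, chosen by their labels: Poria Low, Poria High, Glycyrrhiza Low and Glycyrrhiza High, with 3 libraries each. The tested quantity is the Poria change minus the Glycyrrhiza change, both on the log2 scale. A positive difference means that the gene rose further with Poria, fell less with it, or rose with it and fell with Glycyrrhiza. In counts of genes below, higher and lower in Poria stand for a called positive and a called negative difference, not for a level. Poria Medium and Glycyrrhiza Medium (100 µg/mL) and the vehicle (DMSO) group, 3 libraries each, are given beside it as values. All 12 cultures carry the same batch name in their titles. The sample descriptions carry set code 9 for Poria and 10 for Glycyrrhiza; each High to Low change lies within 1 code, while the extracts differ in code, so that a difference in starting level between extracts cannot be told apart from the code. The doses match in mass of extract and not in any known constituent. The labels do not say whether replicates came from separate cultures, and if they did not, the p-values measure only technical spread.

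Poria is the sclerotium of a wood-decaying fungus and is known for its triterpenoid acids and polysaccharides. Licorice root is the root of a legume, known for the saponin glycyrrhizin and for many flavonoids and chalcones. HepG2 cells keep much of the secretory and lipid programme of hepatocytes and respond to stress through the same transcription factors as other cells. Hypoxia-inducible factor (HIF) turns on glycolysis and pH regulation when its oxygen-dependent degradation slows, and ATF4 turns on amino acid synthesis, uptake and tRNA charging when kinases of the integrated stress response slow translation.

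The 12 libraries held 20742844 to 32618681 counts. Transcripts of the mitochondrial genome took 15.8 to 17.5% of the counts in Poria Low, 19.7 to 22.3% in Poria High, 15.1 to 17% in Glycyrrhiza Low and 17.8 to 18.4% in Glycyrrhiza High. A list of 8 HepG2 markers, all present, summed to 42740 to 48070 CPM (counts scaled to a common library total) in Poria Low, 48000 to 51190 in Poria High, 43800 to 44660 in Glycyrrhiza Low and 33940 to 36390 in Glycyrrhiza High. In such bulk samples fewer cells and less RNA per cell cannot be told apart. Of 8 leukocyte and macrophage markers PTPRC and MARCO were at 0 in all 12 libraries, while the sum of the list, carried by LYZ and CD68, was 1215 to 1330, 1881 to 1981, 1267 to 1368 and 975.2 to 1057 CPM in the same order of groups. COL1A2 and DCN of the 8 fibroblast markers, KDR of the 8 endothelial and NKX2-1 and SCGB1A1 of the 8 biliary and lung markers were also at 0. The fibroblast sums ran from 7.346 to 10.07, 11.74 to 12.65, 6.985 to 8.031 and 4.027 to 4.844 CPM, the endothelial sums from 2.699 to 3.269, 2.305 to 2.619, 3.254 to 3.588 and 1.882 to 2.446, and the biliary and lung sums from 314.7 to 350.1, 369.2 to 392.5, 362.4 to 367 and 260.2 to 278.8. PDGFRB, at 2.32 to 11.75 CPM over the 12 libraries, made the largest part of the fibroblast sums, and RGS5 reached at most 1.904 CPM. The part that these shifts have in the gene results was not tested.

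The dose responses of the extracts differed in 7420 of 16284 genes tested (45.6%), with 3877 higher in Poria (23.8%) and 3543 lower (21.8%), by edgeR's quasi-likelihood test at a Benjamini-Hochberg adjusted p below 0.05, the test behind all adjusted p-values below. Glycyrrhiza moved more genes than Poria: 4632 rose (28.4%) and 4533 fell (27.8%), together 56.3%, against 3261 (20%) and 2997 (18.4%), together 38.4%. Across genes the log2 changes of the extracts had a Pearson correlation of 0.214 and a Spearman correlation of 0.201, and they share no library; genes are not independent replicates. Of the genes called in both extracts, 3049 moved the same way, 1583 up in both (9.72% of the genes tested) and 1466 down in both (9%), and 1340 moved oppositely with a called difference. Poria up with Glycyrrhiza down held 749 genes (4.6%) and Poria down with Glycyrrhiza up 591 (3.63%). With a log2 change of at least 0.5 in both extracts, 96 and 108 of them were left.

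A gene was counted as moving in 1 extract when its log2 change there was called and at least 0.5, the difference was called, and the 95% interval of the change in the other extract lay within 0.25 of zero. By this rule 217 genes rose (1.33%) and 354 fell (2.17%) with Glycyrrhiza while Poria stayed within the bounds, and 42 rose (0.258%) and 50 fell (0.307%) with Poria while Glycyrrhiza did. A total of 24 genes met this rule and were also called oppositely, their second change being called but small.

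The Poria counts depend on how libraries are scaled. With library totals in place of trimmed mean of M-values (TMM) scaling, the median gene shifts by -0.159 (log2) in Poria, 0.033 in Glycyrrhiza and -0.192 in the difference, and the share of calls that are higher in Poria goes from 52.3% to 28%. Under that scaling 262 of the 749 genes up in Poria and down in Glycyrrhiza were still called so, and 591 of the 591 in the other class. Changes below are relative to the TMM median, and a Poria call that ends under library totals is named. List counts below stand against the shares over all genes tested. These are 23.8% higher and 21.8% lower in Poria, 20% up and 18.4% down with Poria, and 28.4% up and 27.8% down with Glycyrrhiza. Poria up with Glycyrrhiza down is 4.6%, and the reverse is 3.63%.

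**Figure D1:**
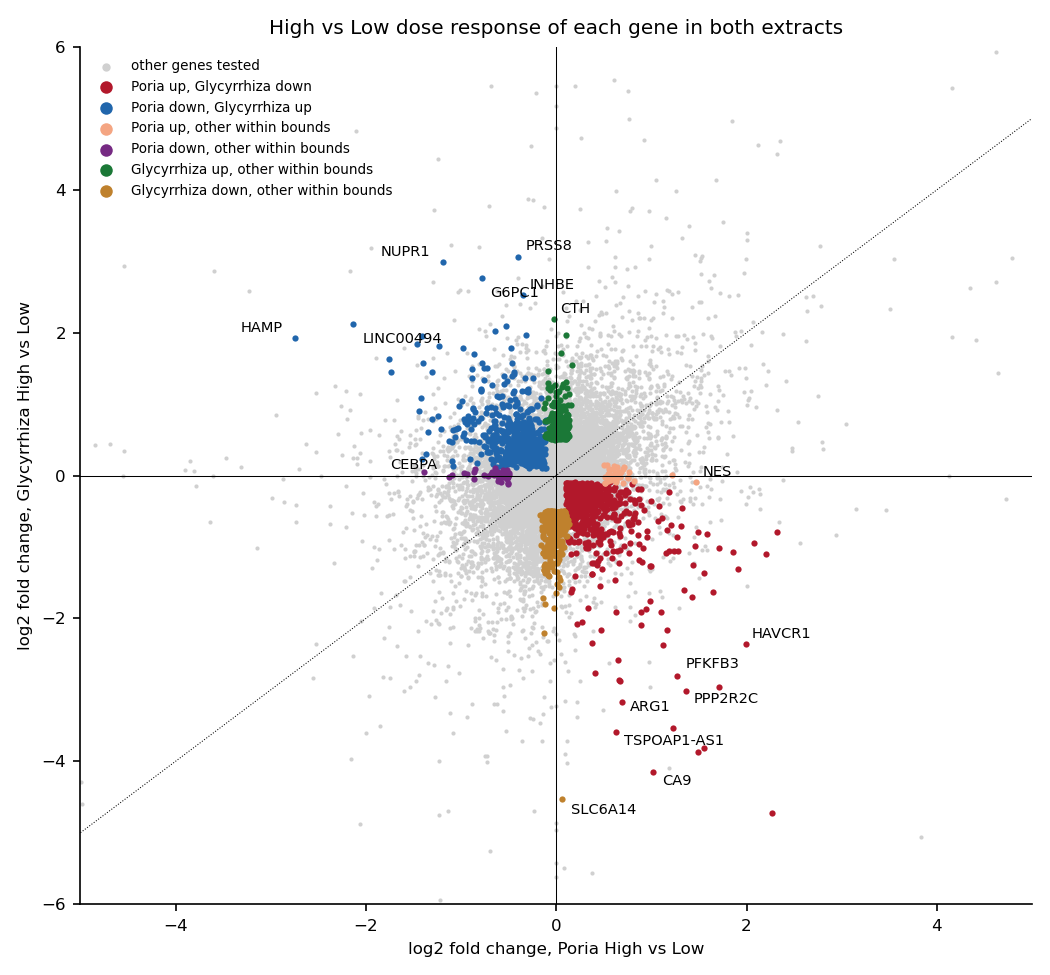
Log2 change from Low to High in Poria (x axis) against that in Glycyrrhiza (y axis), 1 point per tested gene, with 25 genes outside the axes. Red and blue mark the 749 and 591 genes called oppositely, 4 other colours mark genes that moved in 1 extract, the dotted line marks equal change, and named genes are described in the text. Opposite genes fill the upper left and lower right, as CA9 at 1.02 and -4.15 and NUPR1 at -1.19 and 2.99.

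Promoters of 4 genes are shown as examples of targets of HIF and ATF4, factors with well-known short binding motifs. CA9 and LDHA are HIF targets, and the core of the hypoxia response element, ACGTG, was searched on both strands. ASNS and AARS1 are ATF4 targets, and the core of the amino acid response element, TGATGNAA, was searched likewise. Each line gives the 200 bases before the RefSeq transcription start, 5′ to 3′ on the gene's strand (RefSeq, GRCh38.p14), with matches on either strand in capitals.
CA9: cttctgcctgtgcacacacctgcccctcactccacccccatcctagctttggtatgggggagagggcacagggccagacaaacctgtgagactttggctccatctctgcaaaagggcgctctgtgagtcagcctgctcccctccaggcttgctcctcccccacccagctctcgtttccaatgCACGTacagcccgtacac
LDHA: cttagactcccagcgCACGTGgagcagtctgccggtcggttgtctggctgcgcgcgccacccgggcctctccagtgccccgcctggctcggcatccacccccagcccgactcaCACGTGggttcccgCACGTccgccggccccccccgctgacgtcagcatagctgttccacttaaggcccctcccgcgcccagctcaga
ASNS: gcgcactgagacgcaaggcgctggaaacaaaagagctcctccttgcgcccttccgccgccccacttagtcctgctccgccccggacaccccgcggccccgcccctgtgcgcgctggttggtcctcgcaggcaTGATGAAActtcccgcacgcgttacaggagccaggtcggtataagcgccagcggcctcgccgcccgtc
AARS1: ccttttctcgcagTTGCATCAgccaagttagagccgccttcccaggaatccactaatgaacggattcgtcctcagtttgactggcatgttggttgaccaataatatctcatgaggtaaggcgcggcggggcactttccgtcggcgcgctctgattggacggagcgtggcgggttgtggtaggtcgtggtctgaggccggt
The windows are chr9:35673728-35673927 (plus strand), chr11:18394363-18394562 (plus), chr7:97872409-97872608 (minus) and chr16:70289507-70289706 (minus). CA9 has 1 match, whose first base lies 18 bases before the start. LDHA has 5, since a palindromic CACGTG counts once on each strand. ASNS has 1 match 68 bases before the start, and the AARS1 match, 187 before it, lies on the reverse strand and reads TTGCATCA. Over windows from 250 bases before to 50 after the start, ACGTG was in 26.4% of the promoters of 11152 tested genes with an entry and in 21.4% of all 35116 promoters of the table. It was in 11 of 20 promoters of the hypoxia list (55.0%) and in 8 of 16 of the glycolysis list (50%). TGATGNAA was in 1.8% of the tested genes' promoters and 3.6% of all, in 6 of 16 of the aminoacyl-tRNA synthetases (37.5%), 3 of 13 of the amino acid transporters (23.1%) and 3 of 18 of the integrated stress response list (16.7%). Other lists reached like shares, ACGTG in 6 of 12 of the iron and BMP-SMAD list (50%), 6 of 14 of the circadian clock list (42.9%) and 8 of 19 of the mitosis list (42.1%), and TGATGNAA in 3 of 9 of the bile acid list (33.3%). All 4 promoters shown carry a match, but other genes named below do not. Over the windows from 250 bases before to 50 after the start, PFKFB3 and EGLN3 had no ACGTG, and DDIT3 and CTH no TGATGNAA. A match is a run of letters and was not tested for binding.

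Most HIF targets rose with Poria, and most fell with Glycyrrhiza, though only some did both. Of 25 tested members of the hypoxia list, 22 had a higher dose response in Poria and 1 a lower one; 15 rose and 0 fell with Poria, and 3 rose and 19 fell with Glycyrrhiza. A total of 10 of the 25 were called oppositely, and 9 of 25 under library totals. Over all genes tested, the shares were 23.8% higher in Poria and 4.6% opposite in this direction. The median change was 0.41 in Poria and -0.52 in Glycyrrhiza, against -0.004 and 0.006 over all genes tested. The median log2 CPM over the list's members was 5.44, 5.65 and 5.65 in Poria Low and 5.76, 6.20 and 6.27 in Poria High, with replicate 1 lowest at both doses. In Glycyrrhiza it was 5.87, 5.82 and 5.77 at Low and 4.84, 4.93 and 4.69 at High. The High and Low libraries do not overlap in either extract.

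CA9 (ENSG00000107159, chr9:35673856-35681159, plus strand) encodes a cell-surface carbonic anhydrase that exports acid and is a standard HIF target. It stood at 4.23, 5.38 and 4.24 CPM in Poria Low and 6.40, 11.2 and 10.4 in Poria High, with 5.40, 9.11 and 9.60 at Medium. In Glycyrrhiza it stood at 4.70, 5.34 and 4.99 CPM at Low, 4.28, 4.85 and 3.37 at Medium and 0.234, 0.324 and 0.263 at High. Every Poria High library lies above every Low one, a separation that the choice of the 12 opposite genes named here and below required. Glycyrrhiza Medium overlaps Low, and Glycyrrhiza High lies far below both; the vehicle mean was 2.52 ± 0.643 CPM (SD, n = 3). The log2 change (± SE) was 1.02 ± 0.24 in Poria (adjusted p = 0.000599) and -4.15 ± 0.41 in Glycyrrhiza (adjusted p = 5.44e-12), a difference of 5.17 ± 0.49 (adjusted p = 2.59e-12).

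PFKFB3 (ENSG00000170525, chr10:6144934-6254644, plus strand) makes the regulator that drives phosphofructokinase. It was at 3.42, 6.44 and 6.60 CPM in Poria Low and 7.15, 16.7 and 15.5 in Poria High, where replicate 1 is lowest at both doses, as it is for CA9 at High. In Glycyrrhiza it was at 11.6, 9.05 and 11.1 CPM at Low and 1.54, 1.44 and 1.58 at High. Glycyrrhiza Medium was at 10.6 ± 1.09 CPM (mean ± SD, n = 3). Vehicle was at 2.21 ± 0.21 CPM, below both Low groups, and Low was not tested against it. Poria High lies above Poria Low, but its lowest library is close to the highest Low library, whereas Glycyrrhiza High lies far below Low. The changes were 1.27 ± 0.31 (adjusted p = 0.000979) and -2.81 ± 0.38 (adjusted p = 1.73e-08), and the difference 4.08 ± 0.49. EGLN3, a prolyl hydroxylase that marks HIF for degradation, changed by 1.55 ± 0.28 in Poria and -1.37 ± 0.32 in Glycyrrhiza. CITED2, which competes with HIF for its coactivator, changed by 0.34 ± 0.08 and -1.86 ± 0.09; its Poria call ends under library totals (0.18, adjusted p = 0.0618). SLC2A3, a glucose transporter, fell with Glycyrrhiza by 3.17, from 176 ± 5.06 to 19.5 ± 0.534 CPM (mean ± SD, n = 3), while its Poria value of 0.22 ± 0.13 was not called (adjusted p = 0.172), but is without Poria Low 2 or Poria High 1 (0.34 in each, adjusted p = 0.0486 and 0.0409) and with no filter on low counts (0.20, adjusted p = 0.00256).

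Glycolytic enzymes followed the same split. Of 16 tested, 13 had a higher dose response in Poria; 12 rose and 1 fell with Poria, 3 rose and 11 fell with Glycyrrhiza, and 9 were called up with Poria and down with Glycyrrhiza (6 under library totals). LDHA, which makes lactate from pyruvate, was at 1361, 1526 and 1458 CPM in Poria Low and 1877, 2117 and 1905 in Poria High. The Glycyrrhiza levels were 1425, 1455 and 1450 CPM at Low and 635, 628 and 636 at High. The groups do not overlap, and the changes were 0.44 ± 0.05 (adjusted p = 1.95e-09) and -1.19 ± 0.05 (adjusted p = 7.11e-24). HK2 and PKM, the enzymes of the first and last steps, changed by 0.67 ± 0.10 and 0.55 ± 0.05 with Poria and by -0.84 ± 0.10 and -0.79 ± 0.05 with Glycyrrhiza. HK1, a hexokinase isoform at 1.14 ± 0.385 CPM in Poria Low, rose with Poria to 3.08 ± 0.711 CPM, and its Glycyrrhiza change of -0.39 ± 0.24 was not called (adjusted p = 0.153). PGAM1 fell with Glycyrrhiza (-1.08 ± 0.06) and stayed within the bounds in Poria (0.01 ± 0.06).

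**Figure D2:**
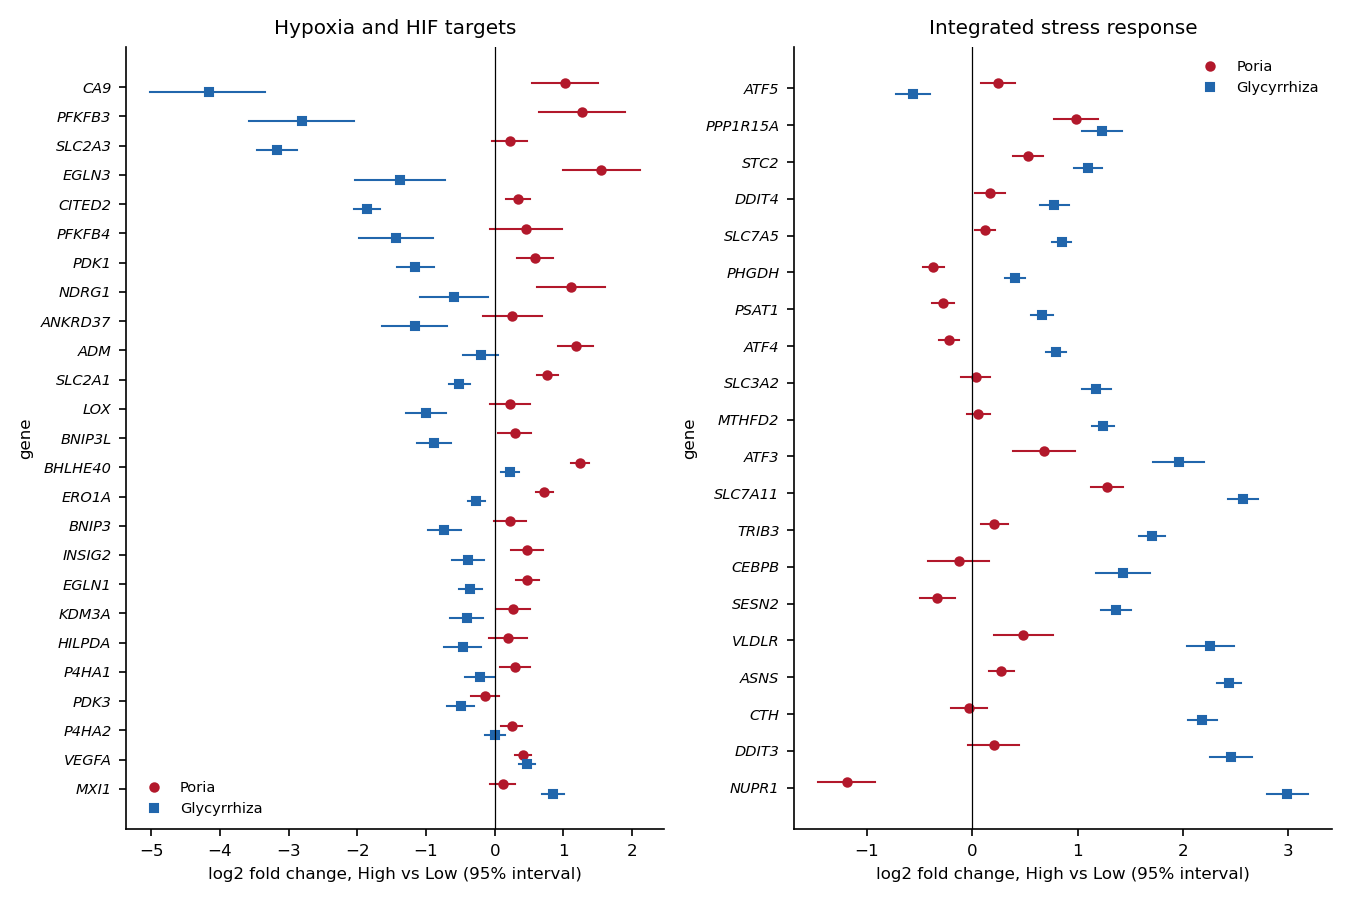
Log2 change from Low to High with its 95% interval for each tested member of the hypoxia list (left, 25 genes) and of the integrated stress response list (right, 20 genes), Poria as circles and Glycyrrhiza as squares. Most hypoxia members lie right of zero in Poria, and most lie left of it in Glycyrrhiza, where 19 of 25 fell. Of 20 stress response members, 19 rose with Glycyrrhiza.

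The other 4 genes with the largest differences in this direction are not on the hypoxia list. PPP2R2C (ENSG00000074211, chr4:6320578-6563600, minus strand), a regulatory subunit of protein phosphatase PP2A, was at 5.35, 7.58 and 6.85 CPM in Poria Low and 12.7, 18.2 and 19.5 in High. With Glycyrrhiza the level was 8.22, 7.77 and 8.06 at Low and 1.07, 0.855 and 1.09 at High. Vehicle was at 3.47 ± 0.328 CPM (mean ± SD, n = 3). No High library overlaps a Low one, and the difference was 4.36 ± 0.27 (adjusted p = 1.13e-17). HAVCR1 (ENSG00000113249, chr5:157029413-157059119, minus strand), a receptor for phosphatidylserine on dying cells, was at 0.615, 0.937 and 1.16 CPM in Poria Low and 2.22, 4.67 and 3.88 in High. Levels in Glycyrrhiza were 1.56, 1.28 and 1.45 at Low and 0.367, 0.295 and 0.131 at High, again without overlap, for a difference of 4.35 ± 0.45 (adjusted p = 4.7e-11). Vehicle was at 0.576 ± 0.206 CPM (mean ± SD, n = 3).

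ARG1 (ENSG00000118520, chr6:131573144-131584332, plus strand), the arginase of the urea cycle, was at 5.73, 9.29 and 9.51 CPM in Poria Low and 10.7, 15.4 and 13.2 in High. The Glycyrrhiza libraries held 6.89, 7.33 and 7.17 at Low and 1.00, 0.589 and 0.788 at High. Vehicle was at 4.83 ± 0.464 CPM (mean ± SD, n = 3). The lowest Poria High library is only just above the highest Low one, and the Glycyrrhiza groups lie far apart, with a difference of 3.86 ± 0.34 (adjusted p = 3.75e-13). Replicate 1 was the lowest Poria library at Low and High for PPP2R2C, HAVCR1 and ARG1. TSPOAP1-AS1 (ENSG00000265148, chr17:58325450-58415766, plus strand), an antisense gene, was at 2.19, 1.39 and 1.25 CPM in Poria Low and 2.52, 2.36 and 2.60 in High, against 2.00, 1.72 and 2.29 and 0.0668, 0.236 and 0.175 in Glycyrrhiza. Its difference was 4.22 ± 0.41, but its Poria rise of 0.63 ± 0.22 (adjusted p = 0.0222) is not called under library totals (adjusted p = 0.0768) or without Poria Low 2, Poria Low 3, Poria High 1 or Poria High 3 (adjusted p from 0.0509 to 0.127). It overlaps RNF43 on the opposite strand, a Wnt regulator that moved the same way (0.38 ± 0.04 and -1.39 ± 0.04), and the strand setting of the counting is not given in the sources used here, so their reads cannot be told apart.

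**Figure D3:**
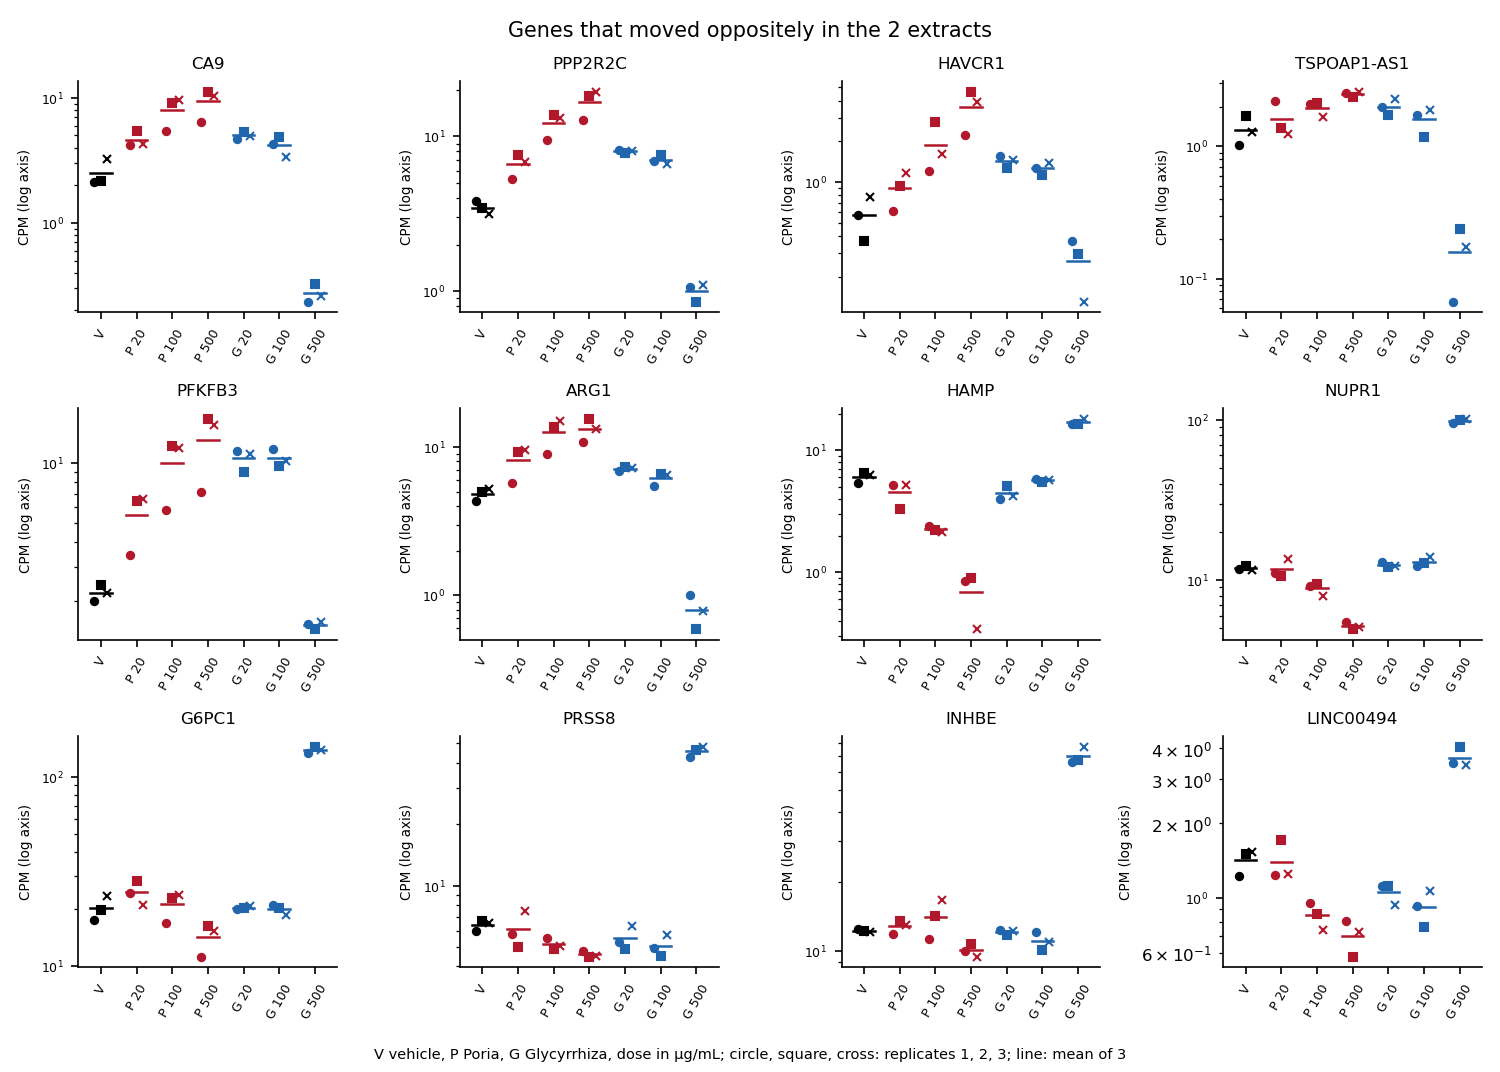
CPM on log axes in each library of vehicle, Poria and Glycyrrhiza at 20, 100 and 500 µg/mL for the 12 opposite genes with the largest differences (1 symbol per library, symbols for replicates 1 to 3, lines for means). In Glycyrrhiza the 100 µg/mL libraries sit near those of 20 µg/mL and the 500 µg/mL libraries stand apart, as for NUPR1 at 12.2 to 13.9 and 95.6 to 101.0 CPM.

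In the reverse direction, 6 genes fell with Poria and rose with Glycyrrhiza by the largest differences. HAMP (ENSG00000105697, chr19:35280716-35285143, plus strand) encodes hepcidin, the hormone that blocks iron export from cells. It was at 5.23, 3.30 and 5.19 CPM in Poria Low, 2.39, 2.22 and 2.14 at Medium and 0.856, 0.892 and 0.342 at High. In Glycyrrhiza it was at 4.00, 5.07 and 4.26 CPM at Low, 5.79, 5.48 and 5.75 at Medium and 16.3, 16.4 and 18.1 at High. The groups separate in both extracts, and the vehicle mean was 6.06 ± 0.588 CPM. The changes were -2.75 ± 0.23 (adjusted p = 2.73e-13) and 1.93 ± 0.13 (adjusted p = 7.08e-17), a difference of -4.68 ± 0.26. On the iron and BMP-SMAD list, 2 of 15 had a higher and 5 a lower dose response in Poria (1 and 8 under library totals). Over all genes tested, the shares were 23.8% and 21.8%. TFR2, a transferrin receptor that feeds into hepcidin control, changed by -0.39 ± 0.07 and 0.27 ± 0.06. SMAD7, an inhibitor of that pathway, changed by -0.86 ± 0.11 in Poria, with an uncalled -0.20 ± 0.10 in Glycyrrhiza (adjusted p = 0.0712).

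NUPR1 (ENSG00000176046, chr16:28532708-28539174, minus strand), a stress-induced chromatin protein downstream of ATF4, was at 11.1, 10.7 and 13.5 CPM in Poria Low and 5.49, 4.93 and 5.08 in High. The Glycyrrhiza levels were 13, 12 and 12.2 at Low and 95.6, 99.8 and 101 at High. The Glycyrrhiza High libraries are far above every other library, and the Poria High libraries are below every other one. The changes were -1.19 ± 0.13 and 2.99 ± 0.09, and the difference -4.18 ± 0.16 (adjusted p = 5.31e-25). INHBE (ENSG00000139269, chr12:57452323-57459280, plus strand), a hepatokine subunit of activin E, was at 11.9, 13.6 and 13 CPM in Poria Low and 10.0, 10.8 and 9.48 in High, against 12.3, 11.8 and 12.2 and 65.9, 67.6 and 77.1 in Glycyrrhiza. Its groups do not overlap, but Poria Medium, at 11.3, 14.2 and 16.6 CPM, reached above Poria Low, and the difference was -2.88 ± 0.12 (adjusted p = 2.68e-23).

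G6PC1 (ENSG00000131482, chr17:42900797-42913369, plus strand), the last enzyme of glucose release, was at 24.4, 28.2 and 21.1 CPM in Poria Low and 11.2, 16.3 and 15.4 in High. With Glycyrrhiza the level was 20.1, 20.3 and 20.8 CPM at Low and 134, 144 and 138 at High. The groups do not overlap in either extract, and the difference was -3.55 ± 0.20 (adjusted p = 2.36e-19). PRSS8 (ENSG00000052344, chr16:31131433-31135762, minus strand), a membrane-anchored serine protease that activates the epithelial sodium channel, was at 5.81, 4.97 and 7.47 CPM in Poria Low and 4.79, 4.46 and 4.53 in High, against 5.27, 4.90 and 6.30 and 43.0, 46.6 and 48.2 in Glycyrrhiza. Its difference was -3.47 ± 0.16; the Poria fall (-0.40 ± 0.13, adjusted p = 0.012) is not called without Poria Low 3 (-0.23, adjusted p = 0.193). LINC00494 (ENSG00000235621, chr20:48359950-48370629, plus strand), a long noncoding RNA, went from 1.23, 1.71 and 1.25 to 0.806, 0.577 and 0.726 CPM with Poria and from 1.11, 1.11 and 0.935 to 3.47, 4.07 and 3.41 with Glycyrrhiza, a difference of -2.77 ± 0.25.

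Gluconeogenesis and fasting genes leaned to Glycyrrhiza. Of 12 tested, 0 had a higher dose response in Poria and 6 a lower one; 3 rose and 4 fell with Poria, 6 rose and 1 fell with Glycyrrhiza. Over all genes tested, 23.8% were higher and 21.8% lower in Poria. With Poria 20% rose and 18.4% fell, and with Glycyrrhiza 28.4% rose and 27.8% fell. PCK2, the mitochondrial enzyme that makes phosphoenolpyruvate, was at 141, 142 and 160.1 CPM in Poria Low and 106, 106 and 108 in High, and at 137, 137 and 139.8 and 396, 398 and 433 in Glycyrrhiza. Its groups do not overlap, with changes of -0.47 ± 0.05 and 1.57 ± 0.05. PPARGC1A, the fasting coactivator, rose in both, by 0.45 ± 0.09 and 1.07 ± 0.08.

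Most NF-kB targets and chemokines rose with Poria, and most fell with Glycyrrhiza, though only some did both. Of 13 tested, 12 had a higher and 1 a lower dose response in Poria; 9 rose and 1 fell with Poria, 1 rose and 9 fell with Glycyrrhiza, and 6 were opposite (4 under library totals). The median change was 0.57 in Poria and -0.69 in Glycyrrhiza, against -0.004 and 0.006 over all genes tested. CCL20, a chemokine for lymphocytes and dendritic cells, was at 38.6, 56.0 and 66.4 CPM in Poria Low and 125, 114 and 117 in High. Levels in Glycyrrhiza were 68.4, 63.6 and 64.9 at Low and 33.2, 28.2 and 30.9 at High. The groups do not overlap; the changes were 1.15 ± 0.11 (adjusted p = 3.36e-12) and -1.09 ± 0.11 (adjusted p = 8.78e-12). BIRC3, a ubiquitin ligase that blocks cell death, changed by 0.89 ± 0.12 and -2.09 ± 0.15. TNFAIP3, the feedback inhibitor A20, fell with Glycyrrhiza (-1.40 ± 0.06), while its small Poria rise (0.20 ± 0.05) is not called under library totals (0.04) or without Poria High 1 (0.12, adjusted p = 0.0986).

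Cytoskeletal and matrix genes of the YAP and TGF-beta list had 14 of 21 higher and 4 lower in Poria, 12 up and 8 down with Poria, 5 up and 14 down with Glycyrrhiza, and 8 opposite in this direction; under library totals 8 rose and 8 fell with Poria and 3 were opposite. TAGLN, an actin-binding protein, changed by 0.41 ± 0.09 and -2.76 ± 0.12 and went from 18.9 ± 0.422 to 2.79 ± 0.204 CPM with Glycyrrhiza. CCN1, a secreted matrix protein, was at 8.08, 6.36 and 6.89 CPM in Poria Low and 18.3, 14.5 and 14.9 in High, against 8.16, 7.30 and 8.03 and 4.44, 4.89 and 4.42 in Glycyrrhiza. Its groups do not overlap, with changes of 1.16 ± 0.10 and -0.77 ± 0.11. THBS1 and ANKRD1 changed by -1.38 ± 0.11 and -1.09 ± 0.13 with Glycyrrhiza; their Poria rises (0.37 ± 0.10 and 0.41 ± 0.12) end under library totals and without Poria High 1 (adjusted p = 0.158 and 0.117), that of THBS1 also without Poria Low 3 (adjusted p = 0.0519). CCN2, in contrast to CCN1, fell in both (-0.21 ± 0.07 and -1.90 ± 0.08), though its Poria call ends without Poria Low 3, Poria High 1 or Poria High 3 (adjusted p = 0.157, 0.0511 and 0.128). KRT19 and SOX9 of the biliary markers and PDGFRB of the fibroblast markers also rose with Poria (0.59 ± 0.07, 0.18 ± 0.07 and 0.66 ± 0.14) and fell with Glycyrrhiza (-0.79 ± 0.07, -0.57 ± 0.07 and -1.23 ± 0.17). The SOX9 rise ends under library totals and without Poria Low 2, Poria Low 3 or Poria High 1 (adjusted p from 0.0502 to 0.197). The other tested members of these 2 marker lists did not follow. EPCAM was called in neither extract (0.03 and -0.08). RGS5 rose with Glycyrrhiza (0.68), and COL1A1, at most at 0.54 CPM, fell with it (-1.39). Their Poria values of -0.59 and -1.24 were not called, but are under library totals (-0.75 and -1.40). The part of these markers in the YAP and TGF-beta list was not tested.

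Protein folding and turnover genes differed by smaller amounts. The heat shock list had 15 of 18 higher in Poria, with 7 up and 3 down with Poria, 2 up and 15 down with Glycyrrhiza and 6 opposite. Under library totals 8 were higher and 2 lower in Poria, 3 rose and 6 fell with Poria, 2 were opposite, and the Poria median went from 0.14 to -0.02. HSPA8, the constitutive HSP70, was at 1495, 1557 and 1644 CPM in Poria Low and 2038, 2085 and 2060 in High. The Glycyrrhiza libraries held 1543, 1594 and 1591 at Low and 953, 972 and 966 at High, with no overlap and changes of 0.40 ± 0.04 and -0.71 ± 0.04. CHORDC1 and HSPH1, co-chaperones, fell with Glycyrrhiza (-0.44 ± 0.06 and -0.54 ± 0.04), and their Poria rises (0.23 ± 0.06 and 0.13 ± 0.04) end under library totals, where HSPH1 turns to -0.03; that of HSPH1 also ends without Poria Low 3 (adjusted p = 0.144), in a fit of only the 12 libraries (adjusted p = 0.0803) and with no filter on low counts (adjusted p = 0.186).

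Of 22 proteasome subunits 13 were higher in Poria, 12 rose with Poria, 1 rose and 10 fell with Glycyrrhiza, and 5 were opposite. Under library totals only 6 were higher in Poria, 4 rose with Poria, 6 fell with Glycyrrhiza and 2 were opposite, and the Poria median went from 0.20 to 0.04. PSMC4, a subunit of the regulatory particle's ATPase ring, changed by 0.40 ± 0.06 and -0.19 ± 0.06, and PSMB2 of the core by 0.33 ± 0.05 and -0.17 ± 0.05. Of 18 genes of the unfolded protein response 12 were higher and 2 lower in Poria; 12 rose and 1 fell with Poria, 7 rose and 9 fell with Glycyrrhiza, and 4 were opposite. Under library totals the balance turned, with 4 higher and 5 lower in Poria, 7 up and 3 down with Poria and 1 opposite. HSPA5, the main chaperone of the endoplasmic reticulum, changed by 0.37 ± 0.06 and -0.32 ± 0.06. CALR, a calcium-binding chaperone there, fell with Glycyrrhiza (-0.81 ± 0.05) with a Poria value of -0.01 ± 0.05, which is called under library totals (-0.17). ERN1, a sensor of the pathway, rose in both and more with Glycyrrhiza (0.72 ± 0.07 and 1.47 ± 0.07).

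Most genes of cholesterol synthesis and uptake fell with Poria. Of 23 tested, 0 had a higher and 13 a lower dose response in Poria; 1 rose and 15 fell with Poria, 10 rose and 4 fell with Glycyrrhiza, and 6 were opposite. TM7SF2, a sterol reductase, was at 64.0, 68.3 and 75.4 CPM in Poria Low, 41.6, 39.1 and 41.8 at Medium and 32.3, 32.4 and 33.0 at High, a change of -1.09 ± 0.06 (adjusted p = 9.29e-19). In Glycyrrhiza it was at 60.6, 64.2 and 66.9 CPM at Low and 71.2, 64.2 and 75.0 at High. The Poria groups lie far apart; the Glycyrrhiza groups overlap, and the change there, 0.13 ± 0.06 (adjusted p = 0.0491), is within the bounds and lost in 12 alternatives, 7 of which leave out a library. LSS, the cyclase that forms lanosterol, changed by -0.63 ± 0.04 with Poria and by 0.12 ± 0.04 with Glycyrrhiza; the latter call ends without Glycyrrhiza Low 2 (adjusted p = 0.0549) or High 3 (adjusted p = 0.172), in a fit of only the 12 libraries (adjusted p = 0.0896) and with no filter on low counts (adjusted p = 0.0932). EBP, a sterol isomerase, fell with Poria (-0.56 ± 0.07) and stayed within the bounds in Glycyrrhiza (-0.01 ± 0.07).

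Of 18 fatty acid and triglyceride synthesis genes, 2 were higher and 13 lower in Poria; 1 rose and 10 fell with Poria, 8 rose and 3 fell with Glycyrrhiza, and 3 were opposite. Under library totals 16 fell with Poria and 7 were opposite. GPAM, the acyltransferase that starts glycerolipid synthesis, was at 217, 211 and 184 CPM in Poria Low and 100.0, 87.9 and 91.8 in High. The Glycyrrhiza levels were 171, 165 and 162 at Low and 228, 246 and 223 at High. The Poria High libraries lie below all others; the changes were -1.13 ± 0.06 (adjusted p = 6.71e-20) and 0.49 ± 0.06 (adjusted p = 1.03e-09). ACSS2, which makes acetyl-CoA from acetate, changed by -0.67 ± 0.04 and 0.84 ± 0.04, and MLXIPL, the carbohydrate-sensing factor ChREBP, by -0.54 ± 0.07 and 0.33 ± 0.07. AGPAT2, the next acyltransferase, rose with Glycyrrhiza (1.94 ± 0.16) with an uncalled Poria change of 0.31 ± 0.21 (adjusted p = 0.258).

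Most coagulation and complement genes fell with Poria, and most coagulation and acute phase genes fell with Glycyrrhiza. Over all genes tested, 20% rose and 18.4% fell with Poria, and 28.4% rose and 27.8% fell with Glycyrrhiza. Of 18 coagulation genes 0 rose and 16 fell with Poria, 4 rose and 10 fell with Glycyrrhiza, and 4 were opposite. F7 and SERPINC1, coagulation factor VII and antithrombin, changed by -0.44 ± 0.11 and -0.41 ± 0.05 with Poria and 1.45 ± 0.09 and 0.79 ± 0.05 with Glycyrrhiza. KNG1, the kininogen, was at 10.2, 11.8 and 11.4 CPM in Poria Low and 3.68, 4.41 and 2.60 in High. With Glycyrrhiza the level was 6.89, 8.01 and 8.10 at Low and 6.48, 6.34 and 6.78 at High. The Poria groups lie well apart (-1.66 ± 0.12), and the Glycyrrhiza change is small (-0.23 ± 0.10) and is lost without any 1 of Glycyrrhiza Low 2, Low 3, High 1, High 2 or High 3 (adjusted p from 0.0502 to 0.146) and under 4 other alternatives (adjusted p from 0.0593 to 0.107). Of 18 complement genes 5 were higher and 9 lower in Poria, against 23.8% and 21.8% of all genes tested. With Poria 2 of them rose and 11 fell, and with Glycyrrhiza 6 rose and 7 fell. MBL2, mannose-binding lectin, changed by 0.43 ± 0.08 and -1.25 ± 0.08, while C5AR1, the receptor for the anaphylatoxin C5a, was at 0.286, 0.405 and 0.450 CPM in Glycyrrhiza Low and 10.3, 13.9 and 12.3 in High and changed by 4.99 ± 0.25 there. Its Poria value of 0.76 ± 0.42 was not called (adjusted p = 0.147), but is without Poria Low 2 (1.25, adjusted p = 0.0405). Of 14 acute phase genes 7 were higher and 5 lower in Poria (4 and 6 under library totals), against 23.8% and 21.8% of all genes tested. With Poria 2 of them rose and 5 fell (2 and 10 under library totals), and with Glycyrrhiza 3 rose and 11 fell. CP, the copper-carrying ferroxidase, and SERPINA1, the main plasma antiprotease, were opposite (0.39 ± 0.08 and 0.37 ± 0.07 in Poria, -0.97 ± 0.08 and -0.59 ± 0.07 in Glycyrrhiza).

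Some genes moved with Poria while Glycyrrhiza stayed within the bounds. NES (ENSG00000132688, chr1:156668763-156677397, minus strand), the intermediate filament nestin, was at 36.8, 33.9 and 38.0 CPM in Poria Low, 62.2, 67.0 and 62.8 at Medium and 103, 101 and 97.8 at High. Levels in Glycyrrhiza were 45.6, 43.9 and 43.2 CPM at Low and 41.2, 39.9 and 43.3 at High, and the vehicle mean was 37.9 ± 3.52. The Poria doses form separate steps and the Glycyrrhiza groups overlap, with changes of 1.47 ± 0.07 (adjusted p = 1.62e-22) and -0.10 ± 0.07, and a difference of 1.57 ± 0.09 (adjusted p = 1.78e-18). SPP1 (ENSG00000118785, chr4:87975650-87983426, plus strand), the matrix protein osteopontin, was at 347, 323 and 363 CPM in Poria Low and 919, 769.7 and 715 in High, against 443, 484 and 468 and 472, 467 and 463 in Glycyrrhiza. Glycyrrhiza Medium, at 676, 572 and 698 CPM, lay above both its Low and its High libraries, so that a flat Low to High change does not mean a flat dose series.

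ICAM1 (ENSG00000090339, chr19:10270835-10286615, plus strand), the adhesion molecule of leukocyte capture, was at 84.0, 76.8 and 77.9 CPM in Poria Low and 158, 132 and 129 in High, a change of 0.81 ± 0.06, with -0.07 ± 0.06 in Glycyrrhiza. ACSL5 (ENSG00000197142, chr10:112374018-112428380, plus strand), an acyl-CoA synthetase, went from 90.5, 97.9 and 94.3 to 153, 170.2 and 168 CPM with Poria (0.80 ± 0.05). Its Glycyrrhiza change was called but small (-0.12 ± 0.05), and it is not called without Glycyrrhiza Low 1, High 1 or High 3 (adjusted p = 0.165, 0.0755 and 0.058) or under 3 other alternatives (adjusted p from 0.0657 to 0.252).

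CEBPA (ENSG00000245848, chr19:33299934-33302564, minus strand), a transcription factor of hepatocyte identity, fell with Poria. It was at 81.0, 75.9 and 93.5 CPM in Poria Low, 65.4, 57.3 and 62.7 at Medium and 39.2, 38.2 and 37.1 at High. The Glycyrrhiza libraries held 71.0, 71.8 and 73.4 CPM at Low and 68.0, 67.2 and 78.0 at High, overlapping. The changes were -1.13 ± 0.07 (adjusted p = 2.23e-17) and -0.02 ± 0.07, and the difference -1.11 ± 0.10 (adjusted p = 6.25e-13). NR1H4, the bile acid receptor FXR, fell in both but mainly with Poria (-1.35 ± 0.06 and -0.20 ± 0.05). MIR1915HG (ENSG00000204682, chr10:21492658-21497262, minus strand), a microRNA host gene, fell by 1.10 with Poria and SCRN2 (ENSG00000141295, chr17:47837692-47841333, minus strand) by 0.97, with Glycyrrhiza changes of 0.01 ± 0.07 and 0.04 ± 0.08. TM7SF2 (ENSG00000149809, chr11:65111845-65116384, plus strand), given above, is the fourth gene of this kind. Of 24 hepatocyte secreted and lineage genes, 10 were higher and 6 lower in Poria (8 and 8 under library totals); FOXA3, another lineage factor, rose with Poria (0.49 ± 0.06) and fell with Glycyrrhiza (-0.56 ± 0.06).

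Metallothioneins bind zinc and copper, and all 7 of those tested had a lower dose response in Poria. With Poria 5 of the 7 fell and 0 rose, and with Glycyrrhiza 2 rose and 3 fell. The other 4 tested members of the list, zinc transporters and the transcription factor MTF1, had 1 higher and 2 lower dose responses in Poria. MT1E was at 176, 208 and 233 CPM in Poria Low and 88.4, 80.4 and 83.7 in High, and at 237, 236 and 255 and 286, 273 and 242 in Glycyrrhiza. The Poria groups do not overlap (-1.29 ± 0.09, adjusted p = 1.81e-15), and the Glycyrrhiza value of 0.14 ± 0.09 was not called (adjusted p = 0.197), but is with no filter on low counts (0.14, adjusted p = 0.045). MT1F and MT1G changed by -2.74 ± 0.16 and -2.38 ± 0.14 with Poria and by -0.65 ± 0.12 and -0.43 ± 0.12 with Glycyrrhiza, whereas MT2A rose with Glycyrrhiza (1.46 ± 0.13). Metallothionein genes are near-identical copies, so that the split of reads between them is uncertain.

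Most immediate early transcription factors rose in both extracts: 17 of 19 rose with Poria and 12 with Glycyrrhiza, where 3 fell. A higher dose response in Poria was called for 10 and a lower one for 4 (8 and 5 under library totals), and of the 12 that rose in both, 4 rose further with Poria and 4 further with Glycyrrhiza. The median difference of 0.49 ranged from 0.298 without Glycyrrhiza Low 1 to 0.62 without Poria Low 1. FOS was at 0.808, 0.693 and 0.913 CPM in Poria Low and 7.30, 4.09 and 5.46 in High, with 1.11, 1.25 and 1.04 and 1.27, 1.39 and 1.79 in Glycyrrhiza. The Poria groups lie well apart (2.80 ± 0.23), and the Glycyrrhiza value of 0.37 ± 0.24 was not called (adjusted p = 0.2). EGR1 rose in both (2.75 ± 0.12 and 1.12 ± 0.12), and NR4A1, an orphan nuclear receptor induced within minutes of a stimulus, was opposite (1.21 ± 0.10 and -0.69 ± 0.11). On the ERK feedback list, 8 of 18 were higher and 2 lower in Poria (6 and 3 under library totals). DUSP6, the phosphatase of ERK, was opposite (0.82 ± 0.06 and -0.35 ± 0.06), SPRY4, an inhibitor upstream of ERK, rose in both (1.59 ± 0.07 and 0.61 ± 0.07), and its relative SPRY1 fell with Glycyrrhiza (-1.04 ± 0.07) within the bounds in Poria (0.05 ± 0.07).

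Transcripts of the mitochondrial genome rose with Poria in 11 of 13 cases and were called in 0 of 13 with Glycyrrhiza, with 5 of 13 differences called. Under library totals 5 of 13 rose with Poria, 2 fell with Glycyrrhiza and 4 differences were called; the Poria calls of MT-ND1, MT-ND2 and MT-ATP8 are among those that end. MT-CO1, a subunit of complex IV, was at 24960, 24460 and 24790 CPM in Poria Low and 34220, 32630 and 31590 in High, a change of 0.41 ± 0.09 (adjusted p = 0.000345), and its Glycyrrhiza value was -0.20 ± 0.09 (adjusted p = 0.0605). The Poria call holds under library totals (0.25, adjusted p = 0.00411), where the Glycyrrhiza fall is called too (-0.17, adjusted p = 0.0455), as it is in a fit of only the 12 libraries (adjusted p = 0.0031) and with no filter on low counts (adjusted p = 1.18e-05). These 13 genes are only a part of the mitochondrial share given above, which counts every gene of the mitochondrial genome. Leaving out all genes of the mitochondrial genome moved no count of genes called by over 1.5 times. Nuclear-encoded subunits of oxidative phosphorylation had 3 of 24 higher and 2 lower in Poria, and cytosolic ribosomal proteins 1 of 30 and 1 of 30; under library totals 0 and 11 of the 30 ribosomal proteins were called.

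Nearly all genes of the integrated stress response list rose with Glycyrrhiza. Of 20 tested members 19 rose and 1 fell with Glycyrrhiza, against 9 and 5 with Poria (5 and 5 under library totals); 18 had a lower dose response in Poria and 1 a higher one, and 5 fell with Poria and rose with Glycyrrhiza (5 under library totals). The median change was 0.15 in Poria and 1.3 in Glycyrrhiza, against -0.004 and 0.006 over all genes tested. The median log2 CPM over the list's members was 5.23, 5.27 and 5.20 in Poria Low and 5.50, 5.55 and 5.67 in High, against 5.33, 5.36 and 5.33 in Glycyrrhiza Low and 6.71, 6.76 and 6.77 in High. Glycyrrhiza High stands clear of all other libraries. DDIT3, the death-promoting factor CHOP, rose by 2.46 ± 0.10 with Glycyrrhiza, with 0.20 ± 0.12 in Poria, called only without Poria Low 3 (adjusted p = 0.18 with all libraries and 0.0415 without it). The gene overlaps MARS1 on the opposite strand, which also rose with Glycyrrhiza. ASNS, asparagine synthetase, was at 37.9, 38.0 and 36.8 CPM in Poria Low and 43.1, 43.1 and 50.2 in High. In Glycyrrhiza it was at 38.3, 36.8 and 35.5 at Low and 202, 198 and 200.2 at High. Its Glycyrrhiza rise was 2.44 ± 0.06 (adjusted p = 3.03e-34), and its Poria rise of 0.28 ± 0.06 ends under library totals (0.12, adjusted p = 0.185).

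CTH (ENSG00000116761, chr1:70411218-70439851, plus strand), the enzyme that makes cysteine from cystathionine, was at 8.62, 9.25 and 8.22 CPM in Poria Low and 8.11, 9.23 and 8.32 in High. The Glycyrrhiza levels were 9.02, 10.2 and 8.10 CPM at Low, 8.56, 9.27 and 8.55 at Medium and 38.7, 42.4 and 43.5 at High. Glycyrrhiza High stands apart from all other groups given. The Poria value was -0.03 ± 0.08 (adjusted p = 0.845), the Glycyrrhiza rise 2.19 ± 0.07 (adjusted p = 1.87e-29), and the difference -2.21 ± 0.11 (adjusted p = 2.35e-21). GTPBP2 (ENSG00000172432, chr6:43605316-43629162, minus strand), a GTPase that rescues stalled ribosomes, rose by 1.97 ± 0.06 with Glycyrrhiza, with an uncalled 0.10 ± 0.07 in Poria (adjusted p = 0.246). PABPC1L (ENSG00000101104, chr20:44910062-44959035, plus strand), a poly(A)-binding protein, rose by 1.71 ± 0.05, with an uncalled 0.05 ± 0.05 in Poria (adjusted p = 0.422). ASAH1 (ENSG00000104763, chr8:18055992-18084998, minus strand), the acid ceramidase of lysosomes, changed by 1.55 ± 0.04 with Glycyrrhiza and by a called but small 0.17 ± 0.04 with Poria, which ends under library totals (adjusted p = 0.921).

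Aminoacyl-tRNA synthetases, which charge tRNAs in the cytosol, rose with Glycyrrhiza in 13 of 20 cases and fell in 3, against 10 and 0 with Poria (6 and 3 under library totals), and 7 of the 20 rose with Glycyrrhiza within the bounds in Poria. AARS1, for alanine, was at 189, 201 and 205 CPM in Poria Low and 177, 206 and 201 in High. With Glycyrrhiza the level was 206, 211 and 201 at Low and 396, 397 and 423 at High. The Poria groups overlap and the Glycyrrhiza groups do not, with changes of -0.03 ± 0.05 (adjusted p = 0.722, called under library totals at -0.18) and 0.98 ± 0.05 (adjusted p = 3.1e-22). SARS1, CARS1, YARS1 and MARS1 changed by 1.23 ± 0.05, 1.03 ± 0.06, 0.97 ± 0.04 and 0.99 ± 0.05 with Glycyrrhiza, and the Poria values were 0.12 ± 0.05, 0.02 ± 0.07, 0.06 ± 0.04 and 0.12 ± 0.06, none of these called. The SARS1 value is called without Poria Low 3 or Poria High 1 (adjusted p = 0.00485 and 0.0396).

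Amino acid transporters had 3 of 16 higher and 10 lower in Poria; 9 rose and 4 fell with Poria, 12 rose and 2 fell with Glycyrrhiza. SLC3A2, the shared heavy chain of several transporters, rose with Glycyrrhiza (1.18 ± 0.07) within the bounds in Poria (0.03 ± 0.07), and SLC7A11, the cystine carrier that pairs with it, rose in both (1.28 ± 0.07 and 2.57 ± 0.07). SLC6A9, a glycine transporter, was opposite (-0.76 ± 0.09 and 1.34 ± 0.07). SLC6A14 (ENSG00000268104, chrX:116436622-116461458, plus strand), a carrier of neutral and cationic amino acids, went the other way. It was at 40.4, 38.8 and 40.2 CPM in Poria Low and 38.6, 40.5 and 45.7 in High, overlapping. Levels in Glycyrrhiza were 49.9, 50.8 and 47.8 CPM at Low, 45.3, 48.1 and 47.1 at Medium and 2.17, 1.83 and 2.54 at High. The fall was -4.53 ± 0.10 (adjusted p = 9.48e-35) against 0.07 ± 0.07 in Poria, a difference of 4.59 ± 0.13 (adjusted p = 8.38e-30).

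The other genes with the largest falls with Glycyrrhiza within the bounds in Poria were UHRF1, NCAPD2P1 and CPB2. UHRF1 (ENSG00000276043, chr19:4903080-4962154, plus strand), which maintains DNA methylation behind the replication fork, was at 94.5, 81.0 and 87.2 CPM in Poria Low and 82.8, 83.6 and 73.9 in High. The Glycyrrhiza libraries held 87.0, 91.5 and 88.1 at Low and 19.2, 17.9 and 20.8 at High, a change of -2.21 ± 0.06 (adjusted p = 3.41e-31). Its Poria groups overlap (-0.13 ± 0.06, adjusted p = 0.0642), though that value is called, among other alternatives, under library totals (-0.29) and without Poria Low 2, Poria High 1 or Poria High 2 (adjusted p = 0.0147, 0.0477 and 0.0373). CPB2 (ENSG00000080618, chr13:46053195-46105033, minus strand), a carboxypeptidase that slows clot breakdown, changed by -1.80 ± 0.06 with Glycyrrhiza. Its Poria value of -0.12 ± 0.05 was not called (adjusted p = 0.0635), but is under library totals (-0.28), with a minimum of 1 CPM in 3 libraries (adjusted p = 0.0468) and without Glycyrrhiza Low 1 or Low 3 (adjusted p = 0.0454 and 0.0447). NCAPD2P1 (ENSG00000230356, chr7:34750253-34752053, minus strand), a processed pseudogene whose reads may come from its parent gene, changed by -1.85 ± 0.13, with an uncalled -0.02 ± 0.11 in Poria (adjusted p = 0.914).

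**Figure D4:**
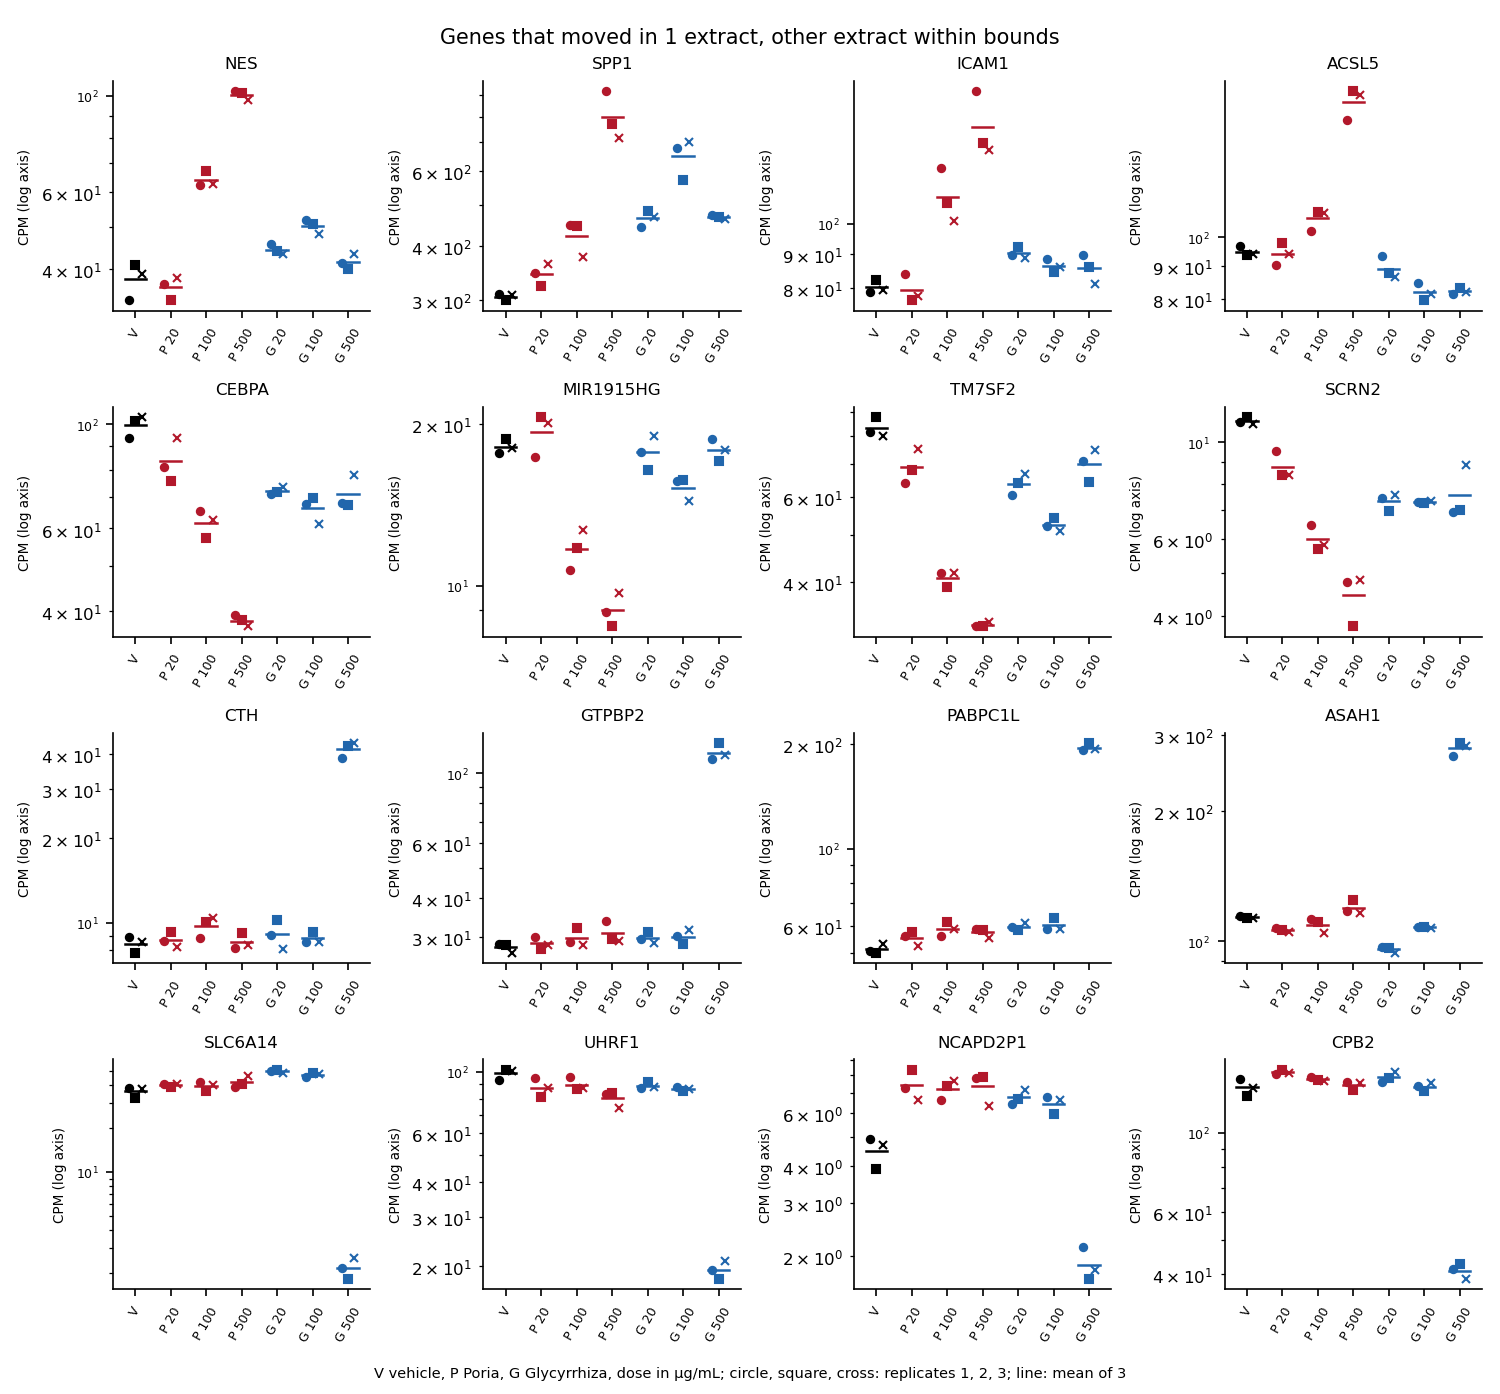
CPM on log axes in each library of vehicle, Poria and Glycyrrhiza at 20, 100 and 500 µg/mL for the 16 genes that moved in 1 extract within the bounds in the other (1 symbol per library, lines for means). SLC6A14 is at 38.6 to 45.7 CPM in Poria High and at 1.83 to 2.54 in Glycyrrhiza High.

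Wnt targets and antagonists fell mainly with Glycyrrhiza: of 14 tested, 11 fell and 1 rose with Glycyrrhiza, 5 fell and 2 rose with Poria (8 and 1 under library totals), and 11 had a higher dose response in Poria. DKK1, a secreted Wnt antagonist, was at 116, 104 and 110.0 CPM in Poria Low and 69.6, 62.1 and 64.0 in High. In Glycyrrhiza it was at 79.4, 74.2 and 73.3 at Low and 5.58, 4.54 and 4.95 at High. It fell in both without overlap and far more with Glycyrrhiza (-0.75 ± 0.07 and -3.92 ± 0.09, difference 3.16 ± 0.12, adjusted p = 4.28e-25). NKD1, a feedback antagonist, fell with Glycyrrhiza (-1.22 ± 0.05) within the bounds in Poria (0.01 ± 0.05, which turns to -0.15 under library totals).

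Proliferation genes fell in both extracts, further with Glycyrrhiza. All 24 mitosis genes fell with Glycyrrhiza and 22 fell with Poria, and all 24 differences were called, with medians of -0.38 in Poria and -1.31 in Glycyrrhiza, against -0.004 and 0.006 over all genes tested. KIF20A, a kinesin of cytokinesis, was at 91.1, 88.6 and 88.5 CPM in Poria Low and 63.7, 59.2 and 56.9 in High, against 91.1, 94.2 and 94.2 and 23.4, 23.7 and 22.4 in Glycyrrhiza. The fall was larger in Glycyrrhiza (-0.58 ± 0.05 and -2 ± 0.05). ANLN, the scaffold of the cleavage furrow, fell with Glycyrrhiza (-1.52 ± 0.06) with a Poria change of 0.01 ± 0.05, which turns to -0.15 and is called under library totals. All 24 DNA replication genes fell with Glycyrrhiza, and 19 fell and 2 rose with Poria, with 24 of 24 differences called. MCM5 of the replicative helicase changed by -0.24 ± 0.06 and -1.85 ± 0.06. RRM2, which makes deoxynucleotides, fell with Glycyrrhiza (-1.63 ± 0.04) and rose with Poria (0.15 ± 0.04), a call that ends under library totals (-0.01) and with no filter on low counts (adjusted p = 0.0694).

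Most targets of NRF2, the factor that answers oxidative stress, rose in both extracts. Of 22 tested, 19 rose and 1 fell with Poria and 20 rose and 1 fell with Glycyrrhiza, with 13 lower and 2 higher in Poria. SRXN1, which repairs oxidised peroxiredoxins, was at 80.2, 74.5 and 84.2 CPM in Poria Low and 201, 188 and 191 in High. The Glycyrrhiza levels were 80.3, 83.3 and 79.7 at Low and 295, 318 and 325 at High. It rose in both without overlap (1.28 ± 0.05 and 1.95 ± 0.05). Of 10 targets of AhR, the receptor for planar aromatic compounds, 5 rose with Poria and 9 with Glycyrrhiza, 4 differences being called, all lower in Poria; CYP1A1 went from 11.9 ± 1.33 to 42.9 ± 10.7 CPM with Poria and from 37.2 ± 2.47 to 1168 ± 43.4 with Glycyrrhiza (1.85 ± 0.12 and 4.97 ± 0.11). Of 22 autophagy and lysosome genes 11 rose and 2 fell with Poria, 19 rose and 1 fell with Glycyrrhiza, and 14 were lower in Poria, while under library totals 7 rose and 5 fell with Poria; GABARAPL1, a protein of the autophagosome membrane, changed by 0.54 ± 0.09 and 1.83 ± 0.08. Of 20 p53 targets 13 fell and 2 rose with Poria and 9 fell and 8 rose with Glycyrrhiza. Over all genes tested, 18.4% fell and 20% rose with Poria, and 27.8% fell and 28.4% rose with Glycyrrhiza. SESN2, a stress-induced inhibitor of growth signalling, was opposite (-0.33 ± 0.08 and 1.37 ± 0.07), and GDF15, a stress cytokine, rose in both (1.52 ± 0.10 and 2.43 ± 0.10).

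**Figure D5:**
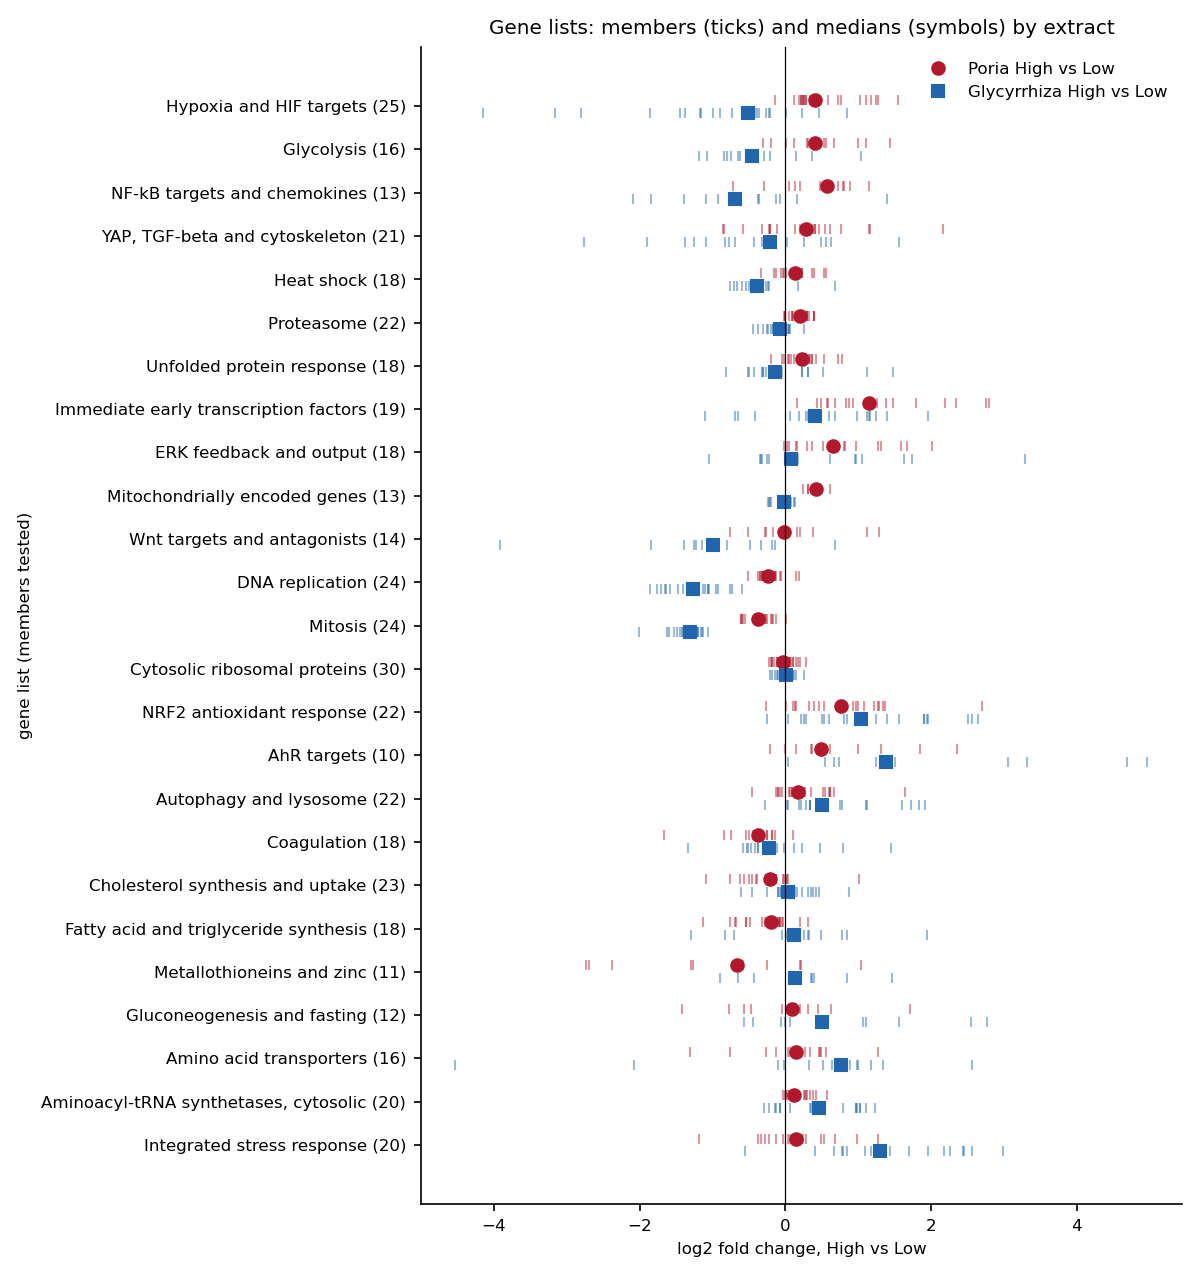
Log2 change from Low to High of the tested members (ticks) of 25 gene lists and their medians (symbols) in Poria and in Glycyrrhiza, with the number of members in brackets. The hypoxia medians are 0.41 and -0.52, the integrated stress response medians 0.15 and 1.3, and those of the ribosomal proteins -0.03 and 0.01.

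Other lists are described here by single members, beside list counts. Of 9 urea cycle genes 1 was higher and 4 lower in Poria, and of 10 corticosteroid genes 2 and 5. For 16 fatty acid oxidation genes the counts were 3 and 8, and for 12 of the insulin-like growth factor axis 3 and 6. Interferon genes had 6 and 2 of 17 (5 and 4 under library totals). G1 cyclins, their kinases and inhibitors had 9 and 1 of 18 (8 and 5). Over all genes tested the shares were 23.8% and 21.8%. NAGS, which makes the activator of the urea cycle, rose in both (1.00 ± 0.15 and 3.21 ± 0.12), while ASS1, the enzyme that joins citrulline and aspartate, was opposite (-0.24 ± 0.05 and 1.37 ± 0.05). SGK1, a kinase induced by corticosteroids, was at 27.9, 24.2 and 25.8 CPM in Poria Low and 16, 15.1 and 18.2 in High, against 23.8, 25.2 and 27.1 and 2.84, 2.30 and 3.28 in Glycyrrhiza. It fell in both, further with Glycyrrhiza (-0.66 ± 0.07 and -3.20 ± 0.09). NR3C1, the glucocorticoid receptor, was opposite (-0.40 ± 0.06 and 0.53 ± 0.06). CPT1A, the gate of fatty acid oxidation, rose mainly with Glycyrrhiza (1.66 ± 0.07), and its Poria rise (0.26 ± 0.07) ends under library totals (0.10). IGFBP3, a carrier of insulin-like growth factors, rose further with Poria (3.04 ± 0.28 against 0.72 ± 0.27); the Glycyrrhiza call ends without Glycyrrhiza Low 3 or High 2 (adjusted p = 0.107 and 0.0603). UBD, a ubiquitin-like modifier of the interferon list, was at 57.2, 60.1 and 54.4 CPM in Glycyrrhiza Low and 3.74, 3.27 and 3.59 in High (-4.02 ± 0.11), with an uncalled Poria change of 0.11 ± 0.08 (adjusted p = 0.275).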

How the data were processed

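Messenger RNA was sequenced as 100 bp paired reads from directional libraries, per the labels' protocols. Per the submitters' processing notes, FastQC 0.11.9, Trim Galore 0.6.5, STAR 2.7.3a and RSEM 1.3.3 were used with GRCh38 (hg38); neither annotation release nor strand setting is given in the sources used here. The table deposited by the authors holds expected counts per gene without normalisation, and 23.4% of the values above 0 in the columns used deviate from a whole number by more than 0.005. The table has 60675 genes and 270 sample columns, of which 60 belong to these samples and 210 were not used. The labels give the vehicle as 0.1% DMSO and the series text another content; vehicle enters no test here.

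Expected counts were rounded to whole numbers, filtered by filterByExpr (16284 genes kept), scaled by TMM and fitted with edgeR 4.0.16 (R 4.3.3), 1 coefficient per group, on the 54 libraries of 19 groups with at least 2 libraries, which share 1 estimate of the spread (35 residual degrees of freedom). The contrast was (Poria High - Poria Low) - (Glycyrrhiza High - Glycyrrhiza Low), tested by quasi-likelihood with Benjamini-Hochberg adjustment over all genes at 0.05. Errors of log2 changes are standard errors, with 3 libraries a group; levels are CPM computed with the TMM-scaled library sizes. The median standard error was 0.09 for a change in 1 extract and 0.12 for the difference. The procedure was tested on simulated counts with 200 changed genes. Those counts had the same spread for every gene and far fewer changed genes than were called here. They therefore cannot check the choice of scaling. Replicates of a group differed beyond sampling noise in every pair (chi-square per degree of freedom from 3.218 to 20.44).

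The members and the 46 gene lists were chosen with earlier results of these data known. Named genes were taken from genes with at least 1 CPM on average. In each extract in which they moved, the High libraries lay all on 1 side of Low. They were the 6 with the largest absolute difference in each opposite direction. In each class that moved in 1 extract they were the 4 with the largest absolute change there. Up to 5 members of each list with the largest absolute difference were added, from which the text takes those it describes. Coordinates are those of GENCODE release 29 on GRCh38. By these, other named genes also overlap a gene on the opposite strand, among them CA9 (ARHGEF39), ARG1 (MED23) and GTPBP2 (POLH). TM7SF2 overlaps VPS51 on the same strand. Whether such genes share reads was not tested. Alternatives were DESeq2 1.42.0, its size factors, library totals, other filters, a fit of only the 12 libraries, no mitochondrial genes, replicate blocks and leaving out each library.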

Additional observations from a re-analysis of the deposited data

Results flagged for a closer look

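For 12 opposite genes the effect of the dose differed between the extracts by a test of the difference itself (edgeR's quasi-likelihood test with Benjamini-Hochberg adjustment). They were chosen for the largest differences and for High libraries all on 1 side of Low, so neither the size nor the separation is a finding about them. Higher in Poria were CA9 with a difference of 5.17, PPP2R2C with 4.36, HAVCR1 with 4.35, TSPOAP1-AS1 with 4.22, PFKFB3 with 4.08 and ARG1 with 3.86. Lower in Poria were HAMP with a difference of -4.68, NUPR1 with -4.18, G6PC1 with -3.55, PRSS8 with -3.47, INHBE with -2.88 and LINC00494 with -2.77. The Poria replicate 1 libraries held the lowest level among the 3 at both Low and High for CA9, PPP2R2C, HAVCR1, PFKFB3 and ARG1.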

How the results depend on the processing

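Scaling by library totals moved the Poria results most: 2184 genes were then higher and 5603 lower in Poria, 1527 rose and 5750 fell with Poria, 264 were up in Poria and down in Glycyrrhiza and 1381 the reverse, and 12 rose and 123 fell with Poria and 149 fell with Glycyrrhiza with the other extract within the bounds. The Poria change then turned to -0.15 for KLF9, -0.0104 for RRM2, -0.0303 for HSPH1, -0.15 for ANLN and -0.15 for NKD1. Asking for a log2 change of at least 0.5 in both extracts left 96 and 108 opposite genes. Wider bounds of 0.5 gave 175 up and 229 down with Poria and 743 up and 958 down with Glycyrrhiza; in place of the bounds, asking only that the other extract was not called gave 159, 309, 927 and 795. Leaving out 1 library at a time gave 3640 to 3795 genes higher and 3309 to 3404 lower in Poria, 2903 to 3266 up and 2637 to 3090 down with Poria, 4251 to 4679 up and 4212 to 4616 down with Glycyrrhiza, and 662 to 725 and 508 to 570 opposite. In 1 extract it gave 31 to 53 up and 33 to 59 down with Poria and 168 to 230 up and 304 to 352 down with Glycyrrhiza; the 33 came without Glycyrrhiza High 2. Deviations of same-numbered libraries correlated between -0.086 and 0.134 over 18 pairs, 2 of them above 0.1. Those of differently numbered libraries correlated between -0.136 and 0.082 over 36 pairs, 0 of them above 0.1. Such weak correlations across genes cannot show whether the replicate numbers pair the samples. A replicate block gave 3903 genes higher and 3567 lower, and a replicate block within set code 3953 and 3604. The block within set code also called the Poria values of SLC2A3 (0.22, adjusted p = 0.00015), UHRF1 (-0.13, adjusted p = 0.0398) and CPB2 (-0.12, adjusted p = 0.0332), and did not call the Glycyrrhiza value of TM7SF2 (adjusted p = 0.052). DESeq2, its size factors, the other filters, the 12 libraries alone and leaving out mitochondrial genes moved none of these counts by over 1.5 times. Of gene differences under all alternatives, 4822 kept their side of the threshold, 65 lost it and 46 gained it. Genes under about 1 CPM, such as AHRR or C6, carry the widest errors.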
